A study of Mus musculus with 3 samples.

Results

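The cytosolic ribosomal protein genes were taken as the mouse genes named Rpl or Rps with a number (suffix a, l, x or y allowed), plus Rplp0, Rplp1, Rplp2 and Rpsa. Kinases of the Rps6k family, entries typed as pseudogenes and mitochondrial ribosomal proteins were left out. The rule found 82 genes of 20637 named genes on the array, 31 of the small and 51 of the large subunit, read by 171 probes at 180 spots. The arrays held RNA of mouse cells labelled mESCs, for mouse embryonic stem cells, of the gp130 KO, LIFR KO and wildtype genotypes. There was 1 array per genotype and no replicate, which leaves no error between cultures and allows no test or p-value, and the precision of every value below is limited by this number of arrays. The labels state standard culture for all 3 genotypes and give no passage, clone, strain or LIF supply, so each knockout is a single culture whose clonal origin is not stated.

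The cytosolic ribosome has a small subunit, which reads the mRNA, and a large subunit, which joins amino acids. Apart from the stalk proteins, each ribosomal protein is needed in about the same number of copies, and their mRNAs belong to a class that begins with a run of pyrimidines, the terminal oligopyrimidine or TOP tract, through which mTOR controls their translation. LIFR and gp130 form the receptor of the cytokine LIF, which helps mouse embryonic stem cells to stay pluripotent. The comparisons asked how gene expression in the LIFR KO and in the gp130 KO cells differs from that in wildtype cells, and between the knockouts.

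The 1 Lifr probe well above background had levels, as multiples of the array's 75th percentile, of 0.0531 in gp130 KO, 0.0400 in LIFR KO and 0.0524 in wildtype cells, a log2 ratio of -0.39 in LIFR KO over wildtype from dim signals of 29.97 and 34.9 before scaling. The Il6st probe, for gp130, had levels of 0.458, 0.493 and 0.494, a log2 ratio of -0.11 in gp130 KO over wildtype. The position of both probes relative to the deletions is not given in the sources used here, so they do not settle the labels. Of 10 pluripotency markers, 7 were well above background on all 3 arrays, with summed levels of 3.35 in gp130 KO, 2.60 in LIFR KO and 3.13 in wildtype cells, and Sox2, Zfp42 and Dppa3 were well above background on none. Of these 7, 1 was at least 25% higher and 1 at least 20% lower in gp130 KO over wildtype (median log2 ratio 0.087), and 1 and 5 in LIFR KO over wildtype (median -0.41). Of all genes compared, 11.9% were higher and 10.5% lower in gp130 KO, and 13.6% and 20.0% in LIFR KO. Pou5f1, the 1 lower in gp130 KO, was dim, with signals before scaling of 20.3, 22.7 and 31.2 in gp130 KO, LIFR KO and wildtype cells. The lowest signals well above background on these arrays were 9.66, 16.7 and 6.94. Klf4 and Lin28a gave most of each summed level. All 10 epithelial markers were well above background on all arrays, with summed levels of 123, 125 and 117. Of 10 fibroblast and feeder markers 8, 5 and 8 were, with summed levels of 207, 190 and 181, nearly all from Vim and S100a4, while Pdgfrb and Lum were well above background on none. Of the 8 compared, 7 had a ratio above 0 in gp130 KO over wildtype (median 0.27) and 3 in LIFR KO over wildtype, where 3 of the 8 are bounds. Among all genes compared, 54.5% had a ratio above 0 in gp130 KO and 43.4% in LIFR KO over wildtype. The part of the cells' identity in the results below was not tested. A level here is the processed signal as a multiple of the array's own 75th percentile, which was a signal of 654, 750 and 666, and no spot was saturated.

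Sequences around the annotated starts show the feature that gives TOP mRNAs their name. RefSeq promoter entries (GRCm38.p6) were matched for 62 of the 82 genes. A C followed by at least 4 bases that are each C or T stood at the annotated start in 14 of these 62 genes (22.6%), against 813 of 27025 genes of the same table (3.01%). A C followed by at least 6 such bases, beginning within 10 bases of the start on the gene's strand, was found in 30 of 62 (48.4%) against 14.1% of the table. The windows printed here run from 40 bases before the start to 25 bases from it, 5′ to 3′ on the gene's strand, with the tract in capitals. They show 6 genes with a tract, picked after their values were seen, and the 3 members that were well above background on none of the arrays.
Rps10, chr17:27635220-27635284, minus strand: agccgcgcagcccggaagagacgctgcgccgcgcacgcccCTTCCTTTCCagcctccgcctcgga
Rps6, chr4:86857343-86857407, minus strand: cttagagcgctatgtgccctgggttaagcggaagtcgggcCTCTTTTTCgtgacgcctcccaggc
Rps18, chr17:33955641-33955705, minus strand: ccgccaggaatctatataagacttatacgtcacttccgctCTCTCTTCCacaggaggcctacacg
Rpl35, chr2:39005107-39005171, minus strand: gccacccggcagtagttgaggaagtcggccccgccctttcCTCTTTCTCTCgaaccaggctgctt
Rpl28, chr7:4792925-4792989, plus strand: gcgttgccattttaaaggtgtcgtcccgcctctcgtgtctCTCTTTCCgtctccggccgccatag
Rplp2, chr7:141447611-141447675, plus strand: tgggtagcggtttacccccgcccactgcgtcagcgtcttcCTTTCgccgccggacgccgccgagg
Rpl3l, chr17:24727786-24727850, plus strand: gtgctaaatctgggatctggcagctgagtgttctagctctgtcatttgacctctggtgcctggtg
Rpl10l, chr12:66284377-66284441, minus strand: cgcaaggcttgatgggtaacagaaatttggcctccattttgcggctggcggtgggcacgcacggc
Rpl39l, chr16:10170188-10170252, plus strand: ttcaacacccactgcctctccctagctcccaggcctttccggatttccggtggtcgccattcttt

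In Rps10 the tract runs for 10 bases, in Rpl35 for 11 and in Rplp2 for 5. Rpl3l, Rpl10l and Rpl39l have none at their annotated starts, and neither do 45 of the measured members with an entry, so its absence does not set these 3 apart. Over the whole 300 bases of each entry, 250 before the start and 50 from it, CTTCCG, the core letters bound by ETS family factors, stood on either strand in 42 of 62 genes (67.7%) against 18.8% of the table. GGGCGG, the core of the Sp1 site, stood in 37 (59.7%) against 38.2%, and ATGGCG, which overlaps the YY1 site, in 19 (30.6%) against 10.2%. TATAAA stood in 7 (11.3%) against 15.7%. These are matches of letters and not sites shown to be bound.

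Of the 82 genes 79 were well above background on all 3 arrays, all 31 of the small and 48 of the large subunit. Their levels ran over 9.41 to 298 with a median of 119 in gp130 KO, 9.22 to 271 with a median of 113 in LIFR KO, and 8.86 to 258 with a median of 108 in wildtype cells. Rps19, a small subunit head protein mutated in human Diamond-Blackfan anaemia, gave the lowest and Rplp2, a stalk protein, the highest in each genotype. The lowest of them lay above 93.3%, 93.0% and 93.0% of all named genes in gp130 KO, LIFR KO and wildtype cells, so these mRNAs were among the brightest on every array. By contrast 63.6% of all named genes were well above background on all arrays. Levels of different probes are not amounts of mRNA and are not ranked further.

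The other 3 genes, Rpl3l, Rpl10l and Rpl39l, were well above background on none of the arrays. Rpl3l is known from striated muscle, and Rpl10l and Rpl39l from the testis. Their signals lay between 2.0 and 5.46 in gp130 KO, 3.46 and 5.97 in LIFR KO, and 2.22 and 5.01 in wildtype cells, under the lowest signal well above background, 9.66, 16.7 and 6.94. Their broadly expressed partners Rpl3, Rpl10 and Rpl39 stood at 50.04, 277 and 137 times the 75th percentile in gp130 KO, at 45.7, 258 and 128 times in LIFR KO, and at 48.3, 253 and 124 times in wildtype cells. Rps4l, a partner of Rps4x typed as a pseudogene and thus no member, was also not well above background.

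**Figure D1:**
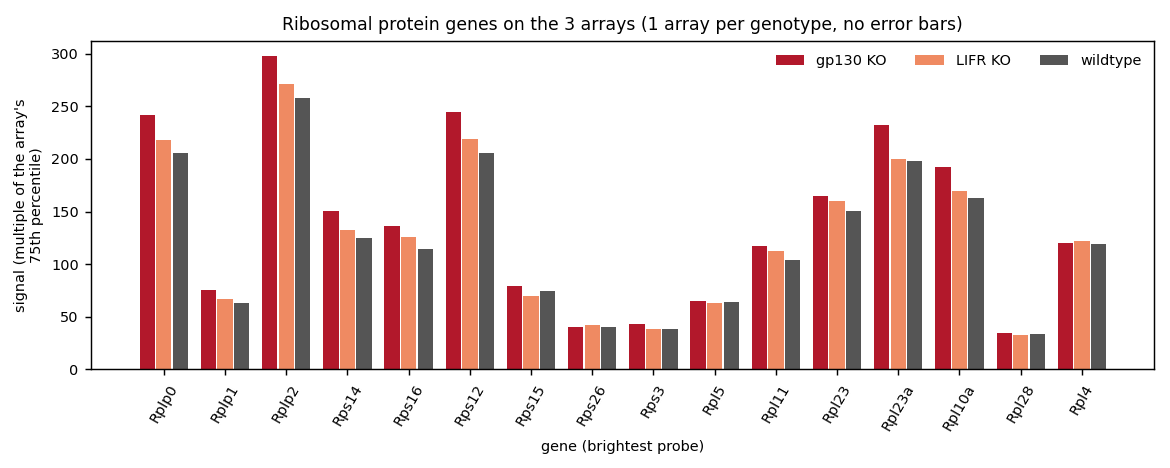
Signal of the brightest probe of 16 ribosomal protein genes, as a multiple of the array's 75th percentile, in gp130 KO, LIFR KO and wildtype cells (1 bar per array, no error bars because there was 1 array each). Rplp2 reached 298, 271 and 258, the highest bars of the plot in all 3 genotypes.

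In gp130 KO over wildtype cells the ribosomal protein genes lay in a narrow band slightly above 0. Their median log2 ratio was 0.13, with an SD over genes of 0.068 and a range of -0.0020 to 0.33, against a median of 0.025 and an SD of 0.37 over all 14905 genes compared. Of 79 genes 78 had a ratio above 0, against 54.5% of all genes. One gene was at least 25% higher, a log2 ratio of 0.32 (11.9% of all genes were), none was at least 20% lower, a log2 ratio of -0.32 (10.5%), and none was 2-fold higher or lower (1.59% and 0.792%). The spread of all genes includes dim probes and 822 ratios that are only bounds, and with normexp fitted without stray spots the SDs were 0.075 over the ribosomal protein genes and 0.21 over all genes, while no ribosomal protein gene was a bound. RNA of whole cultures was measured, so fewer cells of a type and less RNA per cell cannot be told apart.

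The shift depends on how the arrays are brought to one scale. With quantile normalization, which gives all arrays the same distribution of signals, the median was 0.013 against 0.011 over all genes, 46 of 79 genes lay above 0, and no gene was 25% higher. The authors' deposited table gave the same median of 0.013 and also 46 of 79 genes above 0, so it may not be a separate check beside quantile normalization. Probes printed at several spots show how far 2 single spots can differ by scatter alone. Their median SD within an array was 0.054 in gp130 KO and in wildtype cells. For a probe of this median scatter the 95% half-width of a log2 ratio was 0.150 (1.11-fold), and probes that scatter more can differ further. The half-width has no part for differences between cultures. By this measure 31 of 79 genes (39.2%) were higher and 0 lower, against 27.8% and 23.6% of all genes.

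**Figure D2:**
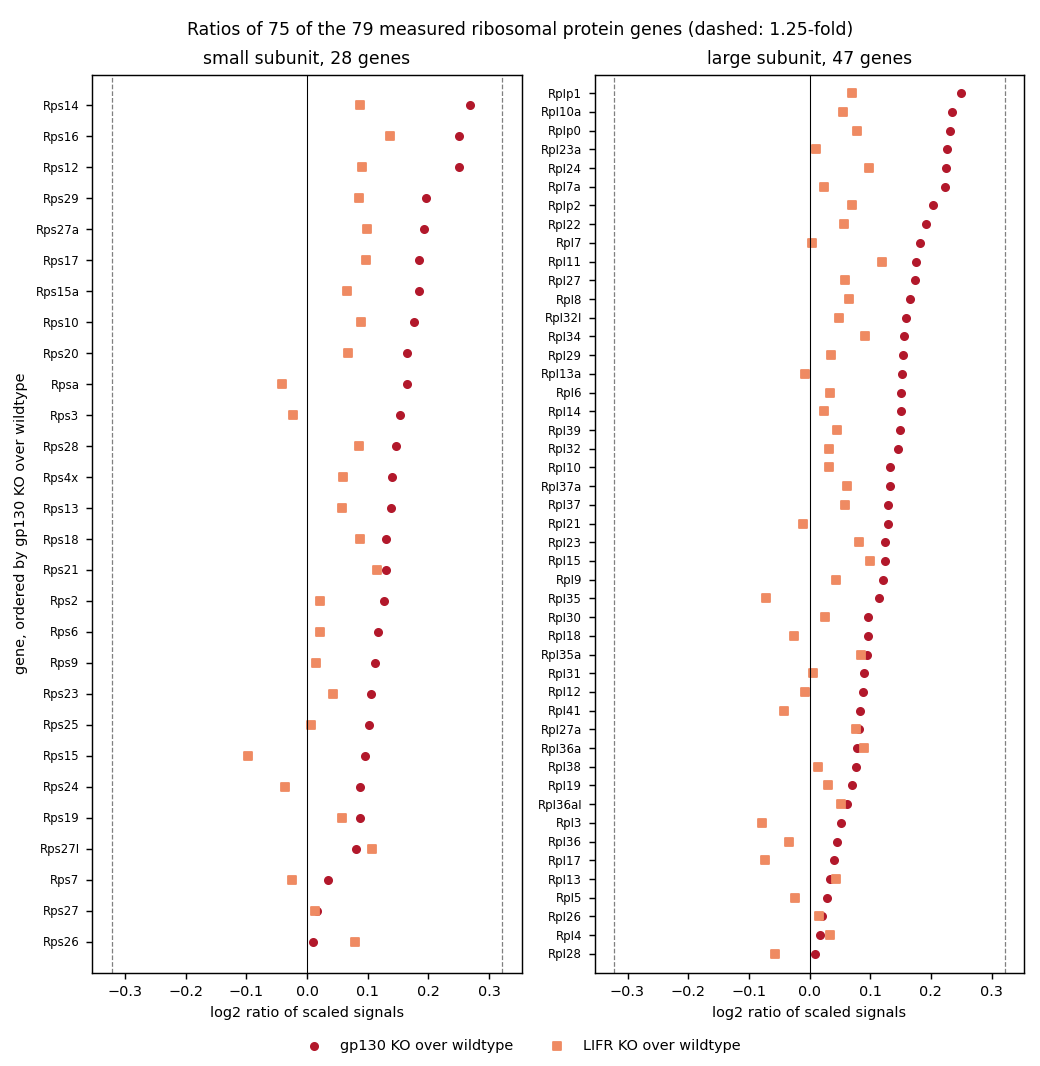
Log2 ratio of the scaled signals of 75 of the 79 measured genes, for gp130 KO over wildtype (circles) and LIFR KO over wildtype (squares), small subunit left and large subunit right, 1 array per genotype. Circles run over 0.0082 to 0.27 and squares over -0.098 to 0.14, all within the dashed lines at a log2 ratio of 0.32 either way.

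In LIFR KO over wildtype cells the band was as narrow and closer to 0. The median log2 ratio was 0.043, with an SD over genes of 0.057 and a range of -0.18 to 0.14, against a median of -0.028 and an SD of 0.54 over 14553 genes. With normexp fitted without stray spots these SDs were 0.062 and 0.32. Ratios above 0 were found for 61 of 79 genes, against 43.4% of all genes. No gene was at least 25% higher or 20% lower, where 13.6% and 20.0% of all genes were, and none was 2-fold higher or lower, where 2.87% and 1.58% were. Beyond the spot half-width of 0.144, 0 genes were higher (26.3% of all genes) and 1 was lower (35.7%).

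On the LIFR KO array 105 spots had a local background above 3 times the array's median, of up to 25884. They are called stray spots here, the source of the signal is not known, and no ribosomal protein spot was among them. The highest local background beside a ribosomal protein spot on that array was 67, against a median of 23.5. When a normexp background model was fitted to all spots including the stray ones, the LIFR KO over wildtype median was -0.49 and all 79 genes were at least 20% lower. Fitted without the stray spots, the same model gave 0.051 and 0 such genes. Scaling by the array median in place of the 75th percentile gave 0.21, with 0.12 over all genes, so that the distance to all genes was 0.095 in place of 0.071.

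Between the knockouts, gp130 KO over LIFR KO, the median was 0.097 with an SD of 0.067 and a range of -0.070 to 0.35, against 0.045 and an SD of 0.48 over 14766 genes. With normexp fitted without stray spots these SDs were 0.070 and 0.26. Above 0 lay 74 of 79 genes, against 58.5% of all genes. One gene was at least 25% higher (15.8% of all genes) and 0 at least 20% lower (9.94%), none was 2-fold higher or lower (1.28% and 2.07%), and 15 were higher and 0 lower beyond the half-width of 0.144 (33.2% and 19.3%). The sign of this median follows the scaling: it was -0.052 with the array median, -0.0058 with quantile normalization, -0.0025 in the authors' deposited table and -0.099 without scaling. The 3 comparisons share their arrays and are not independent of each other.

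**Figure D3:**
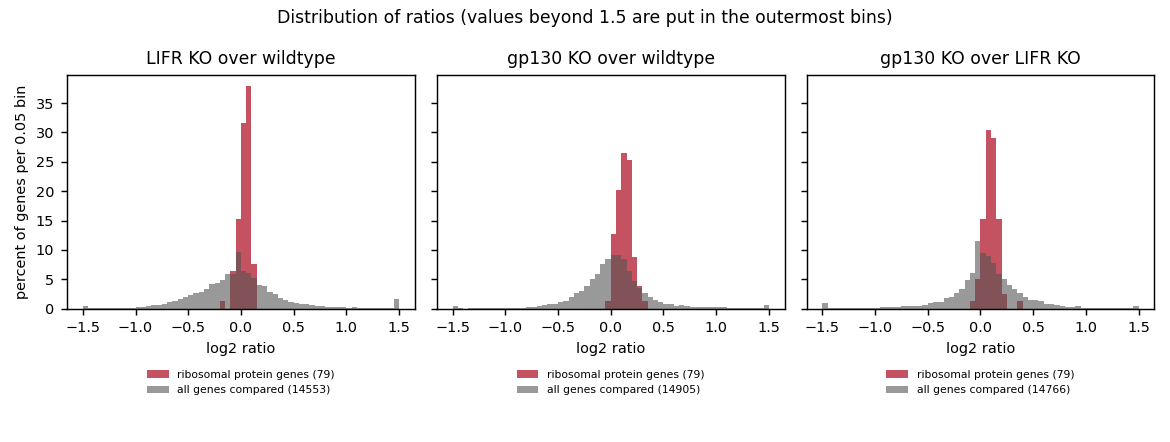
Percent of genes per bin of 0.05 in log2 ratio, for the 79 ribosomal protein genes (red) and all genes compared (grey), in each comparison; values beyond 1.5 sit in the outermost bins. The ribosomal protein genes have SDs of 0.057, 0.068 and 0.067 in LIFR KO over wildtype, gp130 KO over wildtype and gp130 KO over LIFR KO, against 0.54, 0.37 and 0.48 over all genes, or 0.32, 0.21 and 0.26 with normexp fitted without stray spots.

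The stalk of the large subunit recruits elongation factors to the ribosome, with Rplp0 as its base and Rplp1 and Rplp2 as its arms. Rplp0 stood at 242 in gp130 KO, 218 in LIFR KO and 206 in wildtype cells. Rplp1 stood at 75.1, 66.4 and 63.2, and Rplp2 at 298, 271 and 258, in the same order. By these scaled levels all 3 genes were highest in gp130 KO and lowest in wildtype cells. The order of the knockouts depends on the scaling, since before it each gene had a higher signal in LIFR KO than in gp130 KO. For Rplp0 these signals were 163121 and 158174. The gp130 KO over wildtype log2 ratios were 0.23, 0.25 and 0.20, and the LIFR KO over wildtype ratios 0.079, 0.071 and 0.069. The other probes of Rplp0 gave 0.23 and 0.26 for gp130 KO over wildtype. With quantile normalization the 3 stalk ratios were 0.093, 0.17 and 0.072.

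Rps14, which lies near the mRNA exit and is lost in the human 5q- syndrome, stood at 150 in gp130 KO, 132 in LIFR KO and 125 in wildtype cells (0.27 for gp130 KO over wildtype, 1 probe). Rps16, a head protein, stood at 136, 126 and 114 and had the highest LIFR KO over wildtype ratio of all members, 0.14, with 0.25 for gp130 KO. Its other probes gave 0.16 and 0.054 for gp130 KO and 0.053 and -0.048 for LIFR KO, so the LIFR KO value was not shared by all of them. Rps12, also of the head, stood at 245, 219 and 206 (0.25), and its other probe gave 0.081. Rpl10a, the protein of the mobile L1 stalk, was also among the 6 highest in gp130 KO over wildtype, with levels of 192, 170 and 163 (0.23).

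At the other end, Rpl28, a protein that yeast ribosomes lack, stood at 34.1, 32.6 and 33.9 and had -0.057 in LIFR KO and 0.0082 in gp130 KO over wildtype. Rps26, which touches the mRNA at the exit channel, stood at 40.2, 42.2 and 39.9 and was the lowest member in gp130 KO over LIFR KO, at -0.070, with 0.0097 for gp130 KO over wildtype. Rps27, Rpl4 and Rpl26 were also among the 6 lowest in gp130 KO over wildtype, at 0.016, 0.017 and 0.021. The place of Rps27 rests on its brightest probe, since its other 3 gave 0.17, 0.14 and 0.12.

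In LIFR KO over wildtype the highest members included, beside Rps16, Rpl11 at 0.12, Rps21 at 0.12, Rps27l at 0.11 and Rpl15 at 0.10. Among the lowest were Rps15, a head protein near the decoding site, at -0.098, Rpl3, near the peptidyl transferase centre, at -0.078, Rpl17 at -0.073 and Rpl35 at -0.072, both at the peptide exit tunnel. None of these ratios passed the spot half-width. In gp130 KO over LIFR KO the highest included Rpl23a at 0.21, Rpsa at 0.21, Rpl7a at 0.20, Rps15 at 0.19 and Rpl35 at 0.19. The lowest after Rps26 were Rps27l at -0.027, Rpl4 at -0.018, Rpl36a at -0.012, Rpl13 at -0.0086 and Rps27 at 0.0029. Other probes of Rps27 gave 0.15, 0.11 and 0.13, of Rpl13 0.11 and 0.039, and of Rpsa 0.096, -0.0074 and 0.16, so these places rest on the brightest probe.

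Grouped by place in the ribosome, medians in gp130 KO over wildtype ran from 0.090 for the peptide exit tunnel to 0.23 for the stalk. In LIFR KO over wildtype they ran from 0.016 for the exit tunnel to 0.087 for the small subunit head. The small subunit had 0.14 and the large subunit 0.13 in gp130 KO over wildtype, and 0.059 and 0.034 in LIFR KO over wildtype. The 14 proteins of the small subunit head had 0.16 in gp130 KO and 0.087 in LIFR KO over wildtype, with 9 and 0 higher beyond the spot half-width, where 27.8% and 26.3% of all genes were. The 8 proteins of the mRNA channel and decoding site had 0.12 and 0.032, with 2 and 0 higher. The 9 proteins of the peptide exit tunnel had 0.090 and 0.016, from Rpl4 at 0.017 to Rpl23a at 0.23 in gp130 KO, with 2 and 0 higher, and the 2 of 8 and 2 of 9 in gp130 KO are near the share of all genes. With quantile normalization the small subunit head stood at 0.051 and the exit tunnel at -0.044 in gp130 KO over wildtype. All of these subsets are descriptions with no test.

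Rpl5 and Rpl11 form, with the 5S rRNA, the particle that binds MDM2 and so ties ribosome assembly to p53. Rpl5 stood at 65.3 in gp130 KO, 62.9 in LIFR KO and 64.0 in wildtype cells, and Rpl11 at 117, 112 and 103. Over wildtype, Rpl11 had log2 ratios of 0.18 in gp130 KO and 0.12 in LIFR KO, and Rpl5 had 0.029 and -0.024, all but the first within the spot half-width. Other probes of Rpl11 gave 0.147 and 0.121 in gp130 KO, within the half-width, and 0.105 and 0.045 in LIFR KO. The 8 members of the list that holds them, with Rpl23, Rpl26, Rps3, Rps7, Rps14 and Rps27l, had medians of 0.10 and 0.048.

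Rps27 and Rps27l encode nearly alike proteins, and both genes were measured. Rps27 stood at 215 in gp130 KO, 214 in LIFR KO and 212 in wildtype cells, and Rps27l, known as a p53 target, at 31.3, 31.9 and 29.6. Their ratios over wildtype were 0.016 and 0.080 in gp130 KO, and 0.013 and 0.11 in LIFR KO. In gp130 KO the order of Rps27 and Rps27l turned round with the other 3 Rps27 probes, at 0.17, 0.14 and 0.12. Rpl36a and Rpl36al had 0.078 and 0.062 in gp130 KO, and 0.090 and 0.051 in LIFR KO. Whether the probes tell apart the RNA of such pairs, or that of any of the 309 Rpl and Rps pseudogenes in the gene table, was not tested. The same holds for Rpl32l, which stood at 121, 112 and 109, beside Rpl32 at 158, 146 and 143.

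Most ribosomal protein genes were read by several probes. In 50 genes with at least 2 probes well above background, the probes of a gene differed by a median of 0.081 in the gp130 KO over wildtype ratio and 0.074 in the LIFR KO over wildtype ratio. They differed by more than the spot half-width in 15 and 12 genes, at most by 0.43 (in gp130 KO, Rpl6) and 0.29 (in LIFR KO), and in no gene by 2-fold. Rpl23, whose protein also binds MDM2, had a dim probe printed at 10 spots. That probe gave 0.29 ± 0.030 in gp130 KO and 0.27 ± 0.039 in LIFR KO over wildtype (SD, 10 spots of 1 array pair), against 0.12 and 0.081 from the brightest probe and 0.11 and 0.025 from the third. The gap between probes of Rpl23 exceeded the scatter of the spots, and the spots are not separate cultures.

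The probes that were dim compared with the brightest probe of the same gene gave wider ratios. There were 19 such probes of 18 genes, with wildtype signals under 10% of the brightest. Their median log2 ratio was 0.025 (SD 0.15) in gp130 KO over wildtype, with 11 above and 8 below 0, against 0.13 for the brightest probes of the same 18 genes. In LIFR KO over wildtype it was -0.014 (SD 0.15), with 9 above and 10 below 0, against 0.028. The gp130 KO shift was thus seen in the median of the brightest probes and was smaller in that of the dim ones. Whether dim probes read the same transcripts was not tested, and the cut at 10% was chosen after the values were seen.

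**Figure D4:**
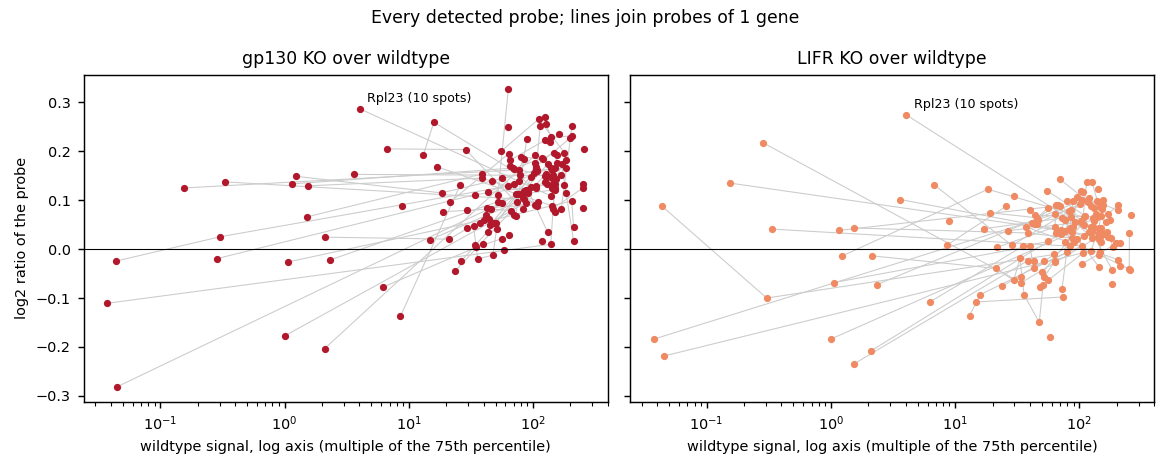
Log2 ratio of every ribosomal protein probe well above background against its wildtype signal on a log axis, for gp130 KO over wildtype (left) and LIFR KO over wildtype (right), with lines joining probes of 1 gene. The bright probes form a tight group, the dim probes scatter over -0.28 to 0.29 in gp130 KO, and the 10-spot Rpl23 probe lies at 0.29 and 0.27.

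Genes with a TOP tract at the annotated start and those without did not differ by more than the spread. In gp130 KO over wildtype the 14 with a tract had a median of 0.13 and the 45 measured genes without had 0.12. In LIFR KO over wildtype the medians were 0.057 and 0.043. In both comparisons the 2 ranges overlapped, 0.0082 to 0.20 and 0.0097 to 0.25 in gp130 KO.

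Some ribosome genes with names outside the rule had ratios within the range of the members. Fau, which encodes Rps30 fused to a ubiquitin-like protein, had 0.14 in gp130 KO and 0.021 in LIFR KO over wildtype. Rack1, a scaffold on the small subunit, had 0.12 and 0.011, and Rps3a1 0.15 and 0.023. The paralogues Rpl22l1 and Rpl7l1 lay below 0, at -0.10 and -0.065 and at -0.17 and -0.28. Rpl7l1 had a level of only 0.496 in gp130 KO, 0.459 in LIFR KO and 0.557 in wildtype cells.

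Ribosome biogenesis factors, which process rRNA and assemble the subunits in the nucleolus, lay on the other side of 0. Of 58 measured factors 0 were at least 25% higher and 12 at least 20% lower in gp130 KO over wildtype, with a median of -0.11, and 0 higher and 11 lower in LIFR KO over wildtype, with a median of -0.088. Of all genes 11.9% were higher and 10.5% lower in gp130 KO, and 13.6% and 20.0% in LIFR KO, with medians of 0.025 and -0.028, so the share of lower factors in LIFR KO was near that of all genes. Pes1, of the PeBoW complex of large subunit maturation, stood at 6.39 in gp130 KO, 6.63 in LIFR KO and 9.25 in wildtype cells (-0.53 in gp130 KO over wildtype). Nmd3, the export adaptor of the large subunit, stood at 1.70, 1.81 and 2.40 (-0.50). In LIFR KO over wildtype, Gnl3, which encodes the stem cell protein nucleostemin, had -0.61 with levels of 3.08, 2.64 and 4.03. Nop56, a core protein of box C/D particles, had -0.59 with levels of 29.4, 24.0 and 36.2, and Gnl3l had -0.62 and, in gp130 KO, -0.47. The median lay below 0 in 12 of 12 ways of processing for gp130 KO and in 10 of 12 for LIFR KO.

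Translation factors had medians of 0.055 in gp130 KO and -0.033 in LIFR KO over wildtype over 42 genes. In gp130 KO 1 was at least 25% higher and 1 at least 20% lower, and in LIFR KO 1 higher and 4 lower, against 11.9% and 10.5% of all genes in gp130 KO and 13.6% and 20.0% in LIFR KO. Eif4a2, an RNA helicase of initiation, stood at 16.2 in gp130 KO, 12.1 in LIFR KO and 19.4 in wildtype cells (-0.68 in LIFR KO over wildtype), and Eif4b, its cofactor, at 5.25, 3.80 and 5.24 (-0.47). Eif2b3, of the eIF2 exchange factor, had -0.37 in gp130 KO and -0.41 in LIFR KO. Eif5b, a subunit-joining factor, had 0.32 and Eif2s2 -0.28 in gp130 KO.

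The 19 other TOP mRNAs, which code for no ribosomal protein, had medians of 0.12 in gp130 KO and 0.011 in LIFR KO over wildtype, close to those of the ribosomal protein genes. Eif3h had 0.21, Nap1l1 0.19 and Naca 0.17 in gp130 KO, while Eif4b, Eef1d and Pabpc1 had -0.47, 0.19 and 0.12 in LIFR KO. With quantile normalization these 19 mRNAs had a median of 0.0058 in gp130 KO over wildtype. The 76 measured mitochondrial ribosomal proteins, encoded in the nucleus for a separate ribosome, had medians of 0.016 and -0.015 and wider SDs of 0.13 and 0.19. Mrps6 had 0.46 and Mrpl17 -0.38 in gp130 KO, and Mrps2 had -0.55 and Mrpl49 0.46 in LIFR KO.

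**Figure D5:**
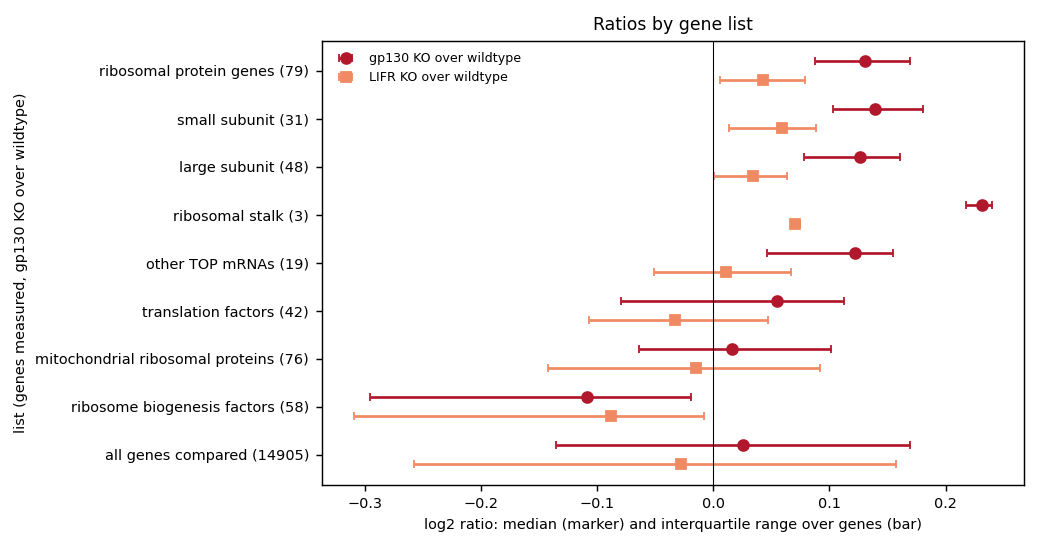
Median (marker) and interquartile range over genes (bar) of the log2 ratio by gene list, for gp130 KO over wildtype (circles) and LIFR KO over wildtype (squares), with the number of genes measured. The ribosomal protein genes have medians of 0.13 and 0.043, ribosome biogenesis factors -0.11 and -0.088, and the ribosomal bars are shorter than those of all genes compared.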

How the data were processed

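Deposited single-colour Agilent arrays (design 026655, built on mm9) were used, 1 per genotype. Per the file headers, Feature Extraction 11.0.1.1 read them under the protocol GE1_1100_Jul11, and the headers give 1 distinct scan. Version 9.1 of this software stands in the submitters' processing notes. The deposited intensity is the software's background-subtracted, detrended signal, not normalised between arrays, and median spot and local background intensities served the normexp alternative. Deposited flags are another kind of value, 0 or 1, for detection above background, saturation and outliers. The authors' deposited log2 table has a median of 5.38 in each column and a correlation across probes of 0.995, 0.999 and 0.996 with the log2 intensity of the gp130 KO, LIFR KO and wildtype arrays; how it was normalised is not stated.

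Outlier spots were dropped, spots of a probe averaged, and log2 intensity minus the array's 75th percentile taken. Accessions were matched, without versions, to a RefSeq gene table (GRCm38.p6), which named 27197 probes (69.1%). The probe with the highest mean log2 value stood for its gene. Genes detected above background on either array of a comparison entered it, with a bound where 1 array was dim. The alternatives were normexp (limma 3.58.1, offset 50), fitted with and without stray spots, other scalings, filters and probe rules, and the authors' table. Ratios were checked on simulated data. An alternative median counted as unmoved within 0.053, the median SD of repeated spots, averaged over the arrays. Named genes are the 6 highest and lowest members per comparison, members past 25%, suffix and paralogue genes, the structural subsets, and of other lists the 3 largest ratios. The p53 and mTOR genes named beyond 3 were chosen after their values were seen. Values of a few single genes that the rule would name are not reported here, though counts and medians include them. Members and lists were chosen with earlier results of these data known.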

Additional observations from a re-analysis of the deposited data

How the results depend on the processing

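The median ratios and the counts past 25% higher or 20% lower of the ribosomal protein genes were recomputed under 12 other ways of processing, of which 1, no scaling between arrays, was added after seeing the data. Counts beyond the spot half-width and the probe and promoter results were not recomputed. The median of the ribosomal protein genes lay above 0 in 12 of 12 alternatives for gp130 KO over wildtype (0.013 to 0.15), in 11 of 12 for LIFR KO over wildtype (-0.49 to 0.21) and in 8 of 12 for gp130 KO over LIFR KO (-0.099 to 0.61). With normexp fitted to all spots, LIFR KO over wildtype had -0.49 with 79 genes at least 20% lower, and gp130 KO over LIFR KO had 0.61 with 79 at least 25% higher. Without the stray spots in that fit, neither was seen. Array median scaling gave 0.21 for LIFR KO over wildtype and -0.052 with 0 genes higher for gp130 KO over LIFR KO. Quantile normalization gave 0.013 with 0 higher for gp130 KO over wildtype and -0.0058 with 0 higher for gp130 KO over LIFR KO, and the authors' deposited table gave 0.013 with 0 higher and -0.0025 with 0 higher. Without scaling the values were 0.21 for LIFR KO over wildtype, 0 genes higher for gp130 KO over wildtype, and -0.099 with 0 higher for gp130 KO over LIFR KO. The mean over probes left 0 genes higher in gp130 KO over wildtype and over LIFR KO, and the second brightest probe 0 in gp130 KO over wildtype. With no filter on dim probes, the 3 undetected genes added 1 higher and 1 lower in LIFR KO over wildtype, 1 lower in gp130 KO over wildtype and 2 lower in gp130 KO over LIFR KO. The cause was not tested beyond what each alternative's construction shows. No paired analysis was possible because each genotype had 1 array. The limit of all values is that spots, not cultures, give the only measure of error.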

Other observations

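Genes that set the translation of TOP mRNAs had a spread of ratios near that of all genes. Over the 16 genes of the list of the mTOR pathway and TOP mRNA regulators, medians were 0.088 in gp130 KO and 0.12 in LIFR KO over wildtype. Their SDs were 0.31 and 0.50, against 0.37 and 0.54 over all genes, which include dim genes and bounds. Over all genes well above background on both arrays, as these 16 were, the SDs were lower, 0.30 and 0.45. In gp130 KO 5 were at least 25% higher and 1 at least 20% lower, and in LIFR KO 3 and 3, where 11.9% and 10.5% of all genes were in gp130 KO and 13.6% and 20.0% in LIFR KO. Ddit4, an inhibitor of mTORC1, stood at 7.56 in gp130 KO, 16.4 in LIFR KO and 5.76 in wildtype cells, log2 ratios of 0.39 and 1.51 over wildtype. Sesn1, a leucine-sensitive regulator of mTORC1, had 0.71 and 0.86, and Sesn2 -0.51 and -0.43. Mlst8, a subunit of both mTOR complexes, stood at 1.73, 0.833 and 1.20, which gave 0.53 and -0.53. Mtor itself had -0.18 and -0.14.

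The 8 genes of the p53 pathway that ribosomal proteins can act on had medians of -0.22 in gp130 KO and 0.12 in LIFR KO over wildtype. Trp53inp1, a p53 target, stood at 0.160 in gp130 KO, 0.336 in LIFR KO and 0.0777 in wildtype cells, log2 ratios of 1.05 and 2.11. Bbc3, which encodes the cell death protein PUMA, stood at 0.877, 2.46 and 0.988 (-0.17 and 1.32), and Gadd45a at 3.06, 3.47 and 1.49 (1.04 and 1.22). Trp53 had -0.45 and -1.18, Mdm2 -0.27 and -0.18, and Cdkn1a, the cell cycle inhibitor p21, -0.95 and 0.061. These values come from 1 array per genotype and were not tested.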
